A study of Homo sapiens with 4 samples.

Results

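The intestinal differentiation genes and their regulators comprised 10 genes, which were found by symbol among the 64962 rows of the deposited table and followed in all 4 libraries. They were the transcription factors CDX1, CDX2 and HNF4A, the surface adhesion proteins CEACAM1, CEACAM5, CEACAM6 and CDH17, the galectin LGALS4, the actin-bundling protein VIL1 and the fatty acid binding protein FABP1. Fragments were counted for 8 of the 10 in at least 1 library. These 8 genes lay on 7 of the 18650 detected loci, because CEACAM5 and CEACAM6 carried identical values and could not be separated.

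Sequenced RNA came from HT-29, a human colorectal adenocarcinoma line, and from NCM460, a line that the study used as normal colon epithelium. Each line was grown without additive or with sturgeon chondroitin sulfate (SCS), a sulfated polysaccharide, at 100 μg/mL over 24 h, and no time was labelled for the control cultures. The paper speaks of biological replicates, but the labels and the table hold 1 library per condition, so no difference below has a replicate check, and a line or a treatment cannot be told apart from its library. The libraries held 1654764 fragments for untreated HT-29, 1605372 for treated HT-29, 1347854 for untreated NCM460 and 1156568 for treated NCM460. Mitochondrial transcripts took 35.8%, 13.8%, 62.3% and 46.3% of these in the same order. A count of 0 was read against a floor of 3 fragments. This was 1.47 and 1.25 CPM, counts scaled to a common library size, in the HT-29 libraries and 3.85 and 2.77 CPM in the NCM460 libraries. The upper interval end of a count of 0 lay above this floor, at 1.80 and 1.54 CPM in HT-29 and 4.74 and 3.41 CPM in NCM460. All levels and differences in CPM are scaled by the trimmed mean of M values (TMM). Intervals are at 95% and, like the floors, cover counting error only.

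CDX1 and CDX2 are homeobox factors that set intestinal identity, and HNF4A is a nuclear receptor that acts with them on genes of the mature enterocyte. The products of such genes build the microvilli, the glycocalyx and the cell contacts of the absorptive surface. Villin bundles actin in the microvillus core, galectin-4 crosslinks glycolipids and glycoproteins of the apical membrane, the CEACAM proteins stand in the glycocalyx, and liver-type fatty acid binding protein carries lipids in the cytosol of enterocytes.

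Both lines carried the epithelial program by their markers. All 12 epithelial markers were detected in each of the 4 libraries, with sums of 7146 CPM in untreated HT-29, 4171 in treated HT-29, 5099 in untreated NCM460 and 3165 in treated NCM460. KRT8 was the most abundant of them in the first 3 of these libraries, with 7024, 3518 and 1406 fragments, and KRT19 in NCM460 with SCS, with 1150 fragments. Of the intestinal genes, LGALS4, VIL1, CEACAM1, the CEACAM5 and CEACAM6 locus, CDH17 and the colonocyte keratin KRT20 had 0 fragments in both NCM460 libraries, whereas CDX2 had 0 in both HT-29 libraries. Markers of other cell types were low or absent, with the exceptions given here. Mesenchymal markers summed to 6.35 and 10.4 CPM in HT-29 and to 126 and 139 CPM in NCM460 without and with SCS, where SPARC led with 65 and 102 fragments. COL1A2, TWIST1 and CDH2 were at 0 in all libraries. Hepatocyte markers summed to 258 and 195 CPM in HT-29 and to 1.28 and 0 CPM in NCM460. They came mainly from SERPINA1, with 486 and 426 fragments in HT-29, while ALB, TTR and AFP were at 0 throughout. Squamous markers reached 14.2 and 22.5 CPM in HT-29 and 3.85 and 1.85 CPM in NCM460, with KRT5, KRT14 and TP63 at 0. KRT13, the most abundant in the HT-29 control, went from 20 to 0 fragments with SCS, and KRT17, the most abundant with SCS, from 7 to 52. Immune markers gave 318, 246, 607 and 577 CPM in the usual order of libraries, nearly all from the CD68 locus, whose values are shared with EIF4A1, SENP3 and other overlapping genes. PTPRC, CD3E and CD14 were at 0. Endothelial markers stayed at 14.1 CPM or below and gastric markers at 2.93 CPM or below, with CLDN18, GKN1 and GKN2 at 0. In the most abundant library of each list, KDR had 6 fragments and TFF1 had 5. The part of these marker levels in the results below was not tested, and in bulk RNA fewer cells of a type and less RNA per cell cannot be told apart.

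**Figure D1:**
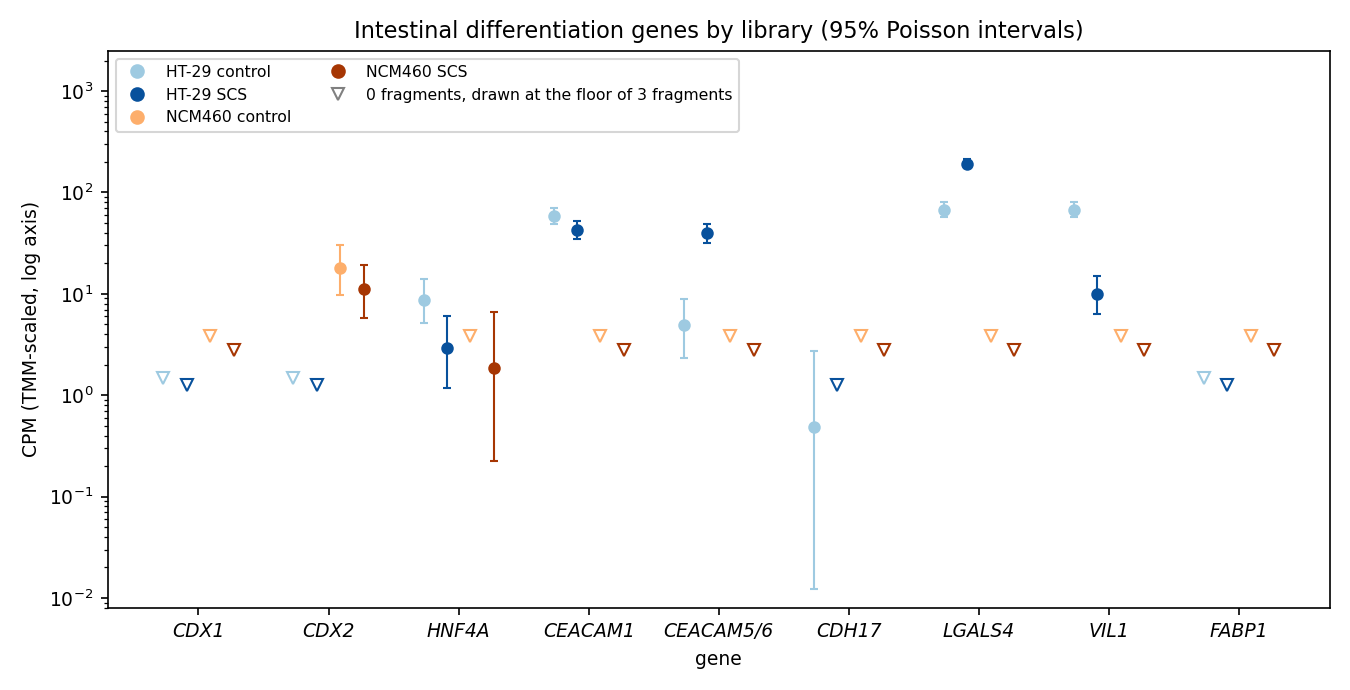
Level of each gene in the 4 libraries, in CPM on a log axis, with 95% Poisson intervals; open triangles mark 0 fragments and stand at the floor of 3 fragments. LGALS4, VIL1, CEACAM1 and the CEACAM5/6 locus are above 0 in the HT-29 libraries, and CDX2 is above 0 in the NCM460 libraries.

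CDX1 (ENSG00000113722, chromosome 5, 150166795 to 150184558 on GRCh38) had 0 fragments in every library. CDX2 (ENSG00000165556, chromosome 13, 27962137 to 27971139) had 0 fragments in untreated and 0 in treated HT-29, against 14 in untreated and 12 in treated NCM460. The NCM460 values correspond to 18.0 CPM (9.83 to 30.2) and 11.1 CPM (5.73 to 19.4), and their intervals overlap. By FPKM, which also divides by transcript length, CDX2 was at 5.37 and 3.45, the percentiles 44.6 and 40.5 among detected loci of those libraries. Thus neither CDX gene was detected in HT-29 cells, and a single one of them in NCM460 cells at a moderate level.

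HNF4A (ENSG00000101076, chromosome 20, 44355700 to 44434596) ran the other way between the untreated libraries, while its difference between the treated ones was not called. It had 18 fragments in untreated and 7 in treated HT-29, against 0 in untreated and 2 in treated NCM460. In HT-29 cells this was 8.80 CPM (5.21 to 13.9) and 2.91 CPM (1.17 to 6.002), or 2.48 and 0.720 FPKM.

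The adhesion genes of the CEACAM family lie together on chromosome 19. CEACAM1 (ENSG00000079385, 42507304 to 42561234) had 121 fragments in the HT-29 control and 103 with SCS, against 0 in both NCM460 libraries. CEACAM5 (ENSG00000105388, 41576273 to 41729798 in the table) and CEACAM6 (ENSG00000086548, 41750977 to 41772208) had 10 fragments in untreated and 95 in treated HT-29, and 0 in both NCM460 libraries. These fragments were assigned to a merged locus of 5 genes that also holds CEACAM21, AC011513.3 and AC006129.2. How they divide among the 5 genes is unknown, and some or all may come from genes other than CEACAM5 and CEACAM6. The table starts CEACAM5 far upstream of its start in GENCODE 29, at 41708585, whereas the other 9 genes have the same coordinates in both. Sharing of sequence is a separate matter. Of the distinct stretches of 50 bases in CEACAM5 transcripts, 1.15% occur in CEACAM6 transcripts, and 0.602% in those of CEACAM1.

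CEACAM1 and the CEACAM5/6 locus differ in their response to SCS below, but the other genes of that locus may carry its response. The promoters of the 3 CEACAM genes are printed to show how alike they are. They are RefSeq windows of 300 bases on GRCh38.p14: chr19:41708376-41708675 (plus strand) for CEACAM5, chr19:41755280-41755579 (plus strand) for CEACAM6 and chr19:42528432-42528731 (minus strand) for CEACAM1. Capitals mark TTTAT or its complement ATAAA, core letters of CDX motifs, in CEACAM5 and CEACAM6, and CAAAG or its complement CTTTG, core letters of HNF4 motifs, in CEACAM1.

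CEACAM5: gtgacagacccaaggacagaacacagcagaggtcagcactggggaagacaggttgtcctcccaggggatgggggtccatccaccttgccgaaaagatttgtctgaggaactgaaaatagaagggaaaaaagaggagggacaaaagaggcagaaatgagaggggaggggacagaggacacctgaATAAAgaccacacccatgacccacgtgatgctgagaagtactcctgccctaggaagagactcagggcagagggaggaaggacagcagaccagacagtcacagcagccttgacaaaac
CEACAM6: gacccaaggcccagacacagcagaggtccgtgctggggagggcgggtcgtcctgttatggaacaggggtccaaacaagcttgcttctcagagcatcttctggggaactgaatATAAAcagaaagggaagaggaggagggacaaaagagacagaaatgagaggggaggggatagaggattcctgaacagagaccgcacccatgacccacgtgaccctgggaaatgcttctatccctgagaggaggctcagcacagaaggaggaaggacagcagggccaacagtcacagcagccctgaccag
CEACAM1: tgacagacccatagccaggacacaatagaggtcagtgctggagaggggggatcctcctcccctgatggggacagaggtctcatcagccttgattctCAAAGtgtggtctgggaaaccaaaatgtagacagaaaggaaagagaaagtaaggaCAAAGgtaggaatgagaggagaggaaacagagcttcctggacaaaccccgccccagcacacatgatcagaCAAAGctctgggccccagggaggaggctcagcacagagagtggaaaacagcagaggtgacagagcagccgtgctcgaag

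In a global alignment the CEACAM5 and CEACAM6 windows had 78.8% identical bases, CEACAM1 and CEACAM6 74.8%, and CEACAM1 and CEACAM5 72.0%. CEACAM5 and CEACAM6 each held 1 match to TTTAT and 0 to CAAAG, whereas CEACAM1 held 0 and 3. Both strings are common, with TTTAT in 34.9% and CAAAG in 47.5% of all 35116 promoters in the table, and ATAAA is also part of the TATA box. A match is a description of letters and does not show that a factor binds there. CDH17 (ENSG00000079112, chromosome 8, 94127171 to 94217303), a cadherin of intestinal epithelium, had 1 fragment in the HT-29 control and 0 in the other libraries, which is under the floor.

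LGALS4 (ENSG00000171747, chromosome 19, 38801671 to 38813364) was the most abundant of the 10 genes per length. It had 138 fragments in the HT-29 control and 464 with SCS, and 0 in both NCM460 libraries. Its level was 42.1 FPKM in the HT-29 control and 116 FPKM with SCS, at the percentiles 93.7 and 98.4. Its RefSeq promoter, chr19:38812896-38813195 on the minus strand of GRCh38.p14, is shown because this gene rose in HT-29 cells where HNF4A fell. Its single match to the HNF4 core letters is in capitals. The same letters occur in 47.5% of all 35116 promoters, and whether HNF4A acts on this gene was not tested.

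LGALS4: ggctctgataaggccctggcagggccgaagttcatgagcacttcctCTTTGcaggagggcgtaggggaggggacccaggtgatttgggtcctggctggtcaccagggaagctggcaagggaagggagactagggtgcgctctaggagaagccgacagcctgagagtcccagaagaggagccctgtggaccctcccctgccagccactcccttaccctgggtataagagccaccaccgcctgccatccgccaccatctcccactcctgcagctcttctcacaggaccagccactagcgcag

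VIL1 (ENSG00000127831, chromosome 2, 218419092 to 218453295) also had 138 fragments in the HT-29 control, but 24 with SCS and 0 in both NCM460 libraries. This was 25.9 FPKM and 3.42 FPKM in HT-29 cells, a move from the percentile 89.3 to 49.5. FABP1 (ENSG00000163586, chromosome 2, 88122982 to 88128116) had 0 fragments in every library. In the HT-29 control the order per length was LGALS4, VIL1, CEACAM1 at 13.2 FPKM, HNF4A, the CEACAM5/6 locus at 1.327 FPKM and CDH17 at 0.122 FPKM. LGALS4 and VIL1 did not differ in fragments there, and the order of genes rests on lengths that the authors used. With SCS the order in HT-29 cells was LGALS4, the CEACAM5/6 locus at 11.5 FPKM, CEACAM1 at 9.27 FPKM, VIL1 and HNF4A. The CPM intervals of CEACAM1 (35.0 to 52.0) and the CEACAM5/6 locus (32.0 to 48.3) overlapped in that library.

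The comparison of SCS with control in HT-29 cells asks how the glycan changed the program of the tumour line. RNA of LGALS4 and of the CEACAM5/6 locus rose, whereas RNA of VIL1 and HNF4A fell. LGALS4 rose from 67.4 to 193 CPM, 2.83-fold, with a log2 ratio of 1.5 (1.24 to 1.80). The CEACAM5/6 locus rose from 4.89 to 39.5 CPM, log2 ratio 2.73 (2.07 to 4.12), or 6.63-fold. VIL1 fell from 67.4 to 9.99 CPM, log2 ratio -2.61 (-3.45 to -2.12). HNF4A fell from 8.80 to 2.91 CPM, log2 ratio -1.27 (-3.10 to -0.27). CEACAM1 had 59.1 and 42.9 CPM and a log2 ratio of -0.45 (-0.86 to -0.07), which did not pass the threshold. Log2 ratios are fold changes on the log2 scale, taken with a prior count of 2, and a locus was called when it passed 1.5-fold with an exact Clopper-Pearson interval that excluded no change. By this rule 4 of the 5 loci tested here, those averaging 1 CPM or more, were called, 2 higher and 2 lower. Among all 12168 loci tested, 31.5% were called, 16.8% higher and 14.8% lower, and the median log2 fold change was 0.07. Scaling by total fragments only took away the call of HNF4A, whose interval then reached 0.01.

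**Figure D2:**
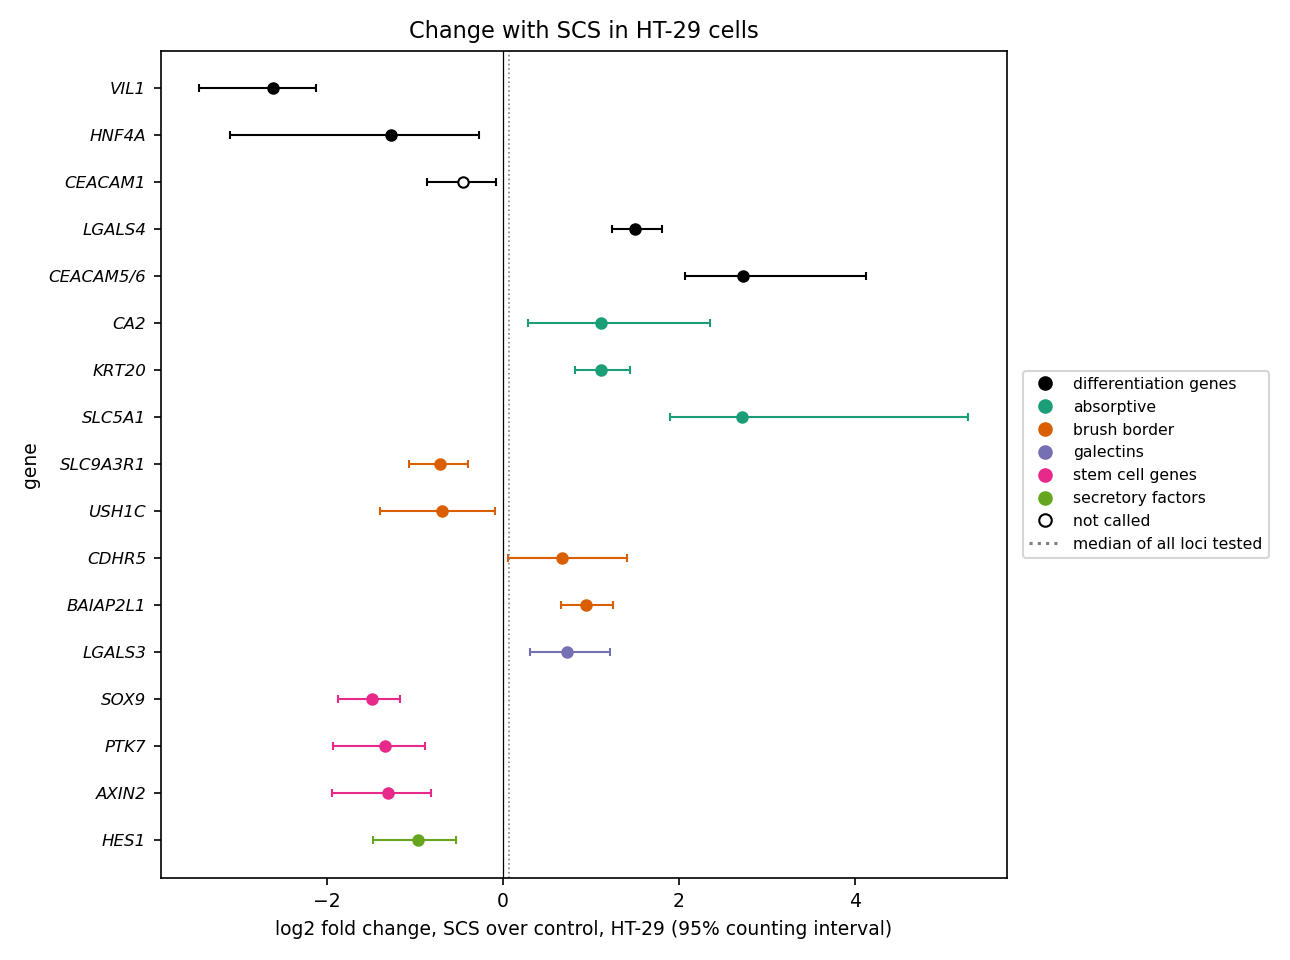
Log2 fold change of SCS over control in HT-29 cells for the differentiation genes and for named genes of companion lists other than transcription factors, with 95% counting intervals; filled points are called, open points are not, and the dotted line is the median of all loci tested. LGALS4 at 1.5 and the CEACAM5/6 locus at 2.73 lie to the right, VIL1 at -2.61 and HNF4A at -1.27 to the left.

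Over the 8 companion lists in HT-29 cells, 26 of 57 loci tested outside the members' own loci were called, or 45.6%, beside the 31.5% of all loci (16.8% higher and 14.8% lower), and the list counts below stand beside the same shares. No list was tested as a set. Among genes that share the surface of the enterocyte with villin, calls went both ways. Of 12 brush border genes tested, 2 were called higher, 2 lower and 8 were not called, with a median of 0.04. BAIAP2L1, which links membranes to actin, rose from 137 to 312 fragments, log2 ratio 0.94 (0.66 to 1.26). CDHR5, a protocadherin of the links between microvilli, rose from 30 to 58 fragments, with 0.67 (0.06 to 1.41). SLC9A3R1, a scaffold that binds ezrin and shares its locus with MIR3615, fell from 179 to 127 fragments, with -0.71 (-1.07 to -0.39). USH1C, which anchors the protocadherins, fell from 51 to 36 fragments, with -0.69 (-1.39 to -0.09). The calls of CDHR5 and USH1C were lost after both libraries were thinned to 1 nuclear depth, and those of SLC9A3R1 and USH1C under scaling by total fragments.

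Among absorptive and colonocyte genes, 3 of 7 tested were called higher and 0 lower in HT-29 cells, with a median of 0.42. SLC5A1, the sodium-glucose cotransporter, rose from 4 to 48 fragments, log2 ratio 2.72 (1.903 to 5.29). KRT20, a keratin of differentiated colonocytes, rose from 119 to 306 fragments, with 1.11 (0.82 to 1.45), but did not pass 1.5-fold by the deposited FPKM. CA2, a carbonic anhydrase, rose from 12 to 34 fragments, with 1.11 (0.29 to 2.36), a call lost after thinning. The list held 24 genes, of which 11 had fragments in some library. Intestinal lipid handling was sparse, with 3 of 12 genes tested, 0 called higher and 1 lower, and a median of 0.29.

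Of 20 transcription factors of the intestine tested in HT-29 cells, 7 were called lower and 2 higher, beside 14.8% and 16.8% of all loci, with a median of -0.16. ONECUT2, a factor of endodermal tissues, fell from 135 to 63 fragments, with -1.29 (-1.79 to -0.89), in a locus shared with 1 other gene. FOXA2 rose from 4 to 24 fragments, with 1.80 (0.81 to 4.34), and PPARA, a nuclear receptor of fatty acid oxidation, from 59 to 136, with 0.94 (0.52 to 1.44). FOXA2 lost its call after thinning. So HNF4A and ONECUT2 were lower in the same library in which LGALS4, SLC5A1 and KRT20 were higher.

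Of 8 stem cell genes tested in HT-29 cells, 6 were called lower and 0 higher, beside the same shares of all loci, with a median of -1.10. SOX9, a factor of the crypt base, fell from 238 to 98 fragments, log2 ratio -1.48 (-1.87 to -1.17). AXIN2, a feedback target of WNT signalling, fell from 90 to 41 fragments, with -1.30 (-1.94 to -0.82), in a locus shared with CEP112. PTK7, a receptor of the crypt, fell from 103 to 46 fragments, with -1.34 (-1.93 to -0.88), a call lost after thinning. Of the secretory lineage factors 2 were tested and both were called lower, with a median of -1.12. One of them was HES1, a NOTCH target that opposes the secretory fate, with 105 and 62 fragments and a log2 ratio of -0.96 (-1.47 to -0.53).

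**Figure D3:**
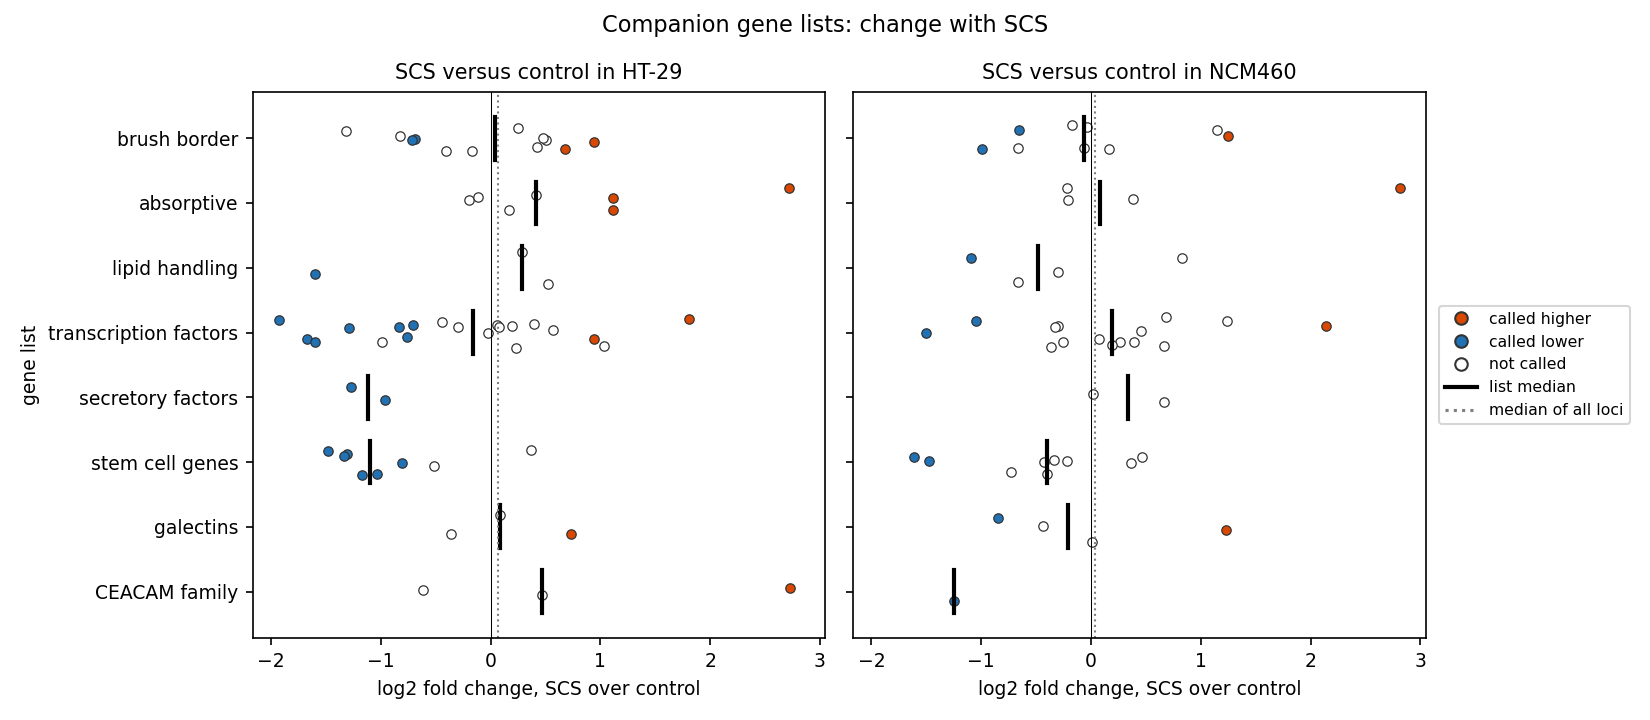
Log2 fold change of SCS over control for the tested genes of 8 companion lists in HT-29 cells (left) and NCM460 cells (right); points are genes (orange called higher, blue called lower, open not called), black bars list medians and dotted lines the median of all loci tested. In HT-29 cells the stem cell genes have a median of -1.10 and the absorptive genes of 0.42.

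In NCM460 cells the same comparison asks whether the line used as normal colon responded. CDX2 was the single member with enough fragments to be tested. It had 18.0 CPM in the control and 11.1 CPM with SCS, log2 ratio -0.64 (-1.94 to 0.52), and was not called, so a change was not detectable at this depth. Called loci were 29.2% of the 12657 tested in this line, with a median log2 fold change of 0.03. This background depended on the setting, with 1492 loci called in place of 3690 after the GC trend was subtracted, and 94.1% in place of 52.7% of the calls higher by total fragments only. CDX2 was at -0.04 (-1.34 to 1.12) with a trend on transcript GC content subtracted and at -0.90 (-2.21 to 0.26) with a trend on expression subtracted. HNF4A, with 0 and 2 fragments, was at or under the floor in both libraries.

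Over the 8 companion lists in NCM460 cells, 13 of 48 loci tested were called, or 27.1%, beside the 29.2% of all loci. Of 9 brush border genes tested, 1 was called higher and 2 lower, with a median of -0.06. Of 4 absorptive genes, 1 was called higher: SLC26A2, a sulfate transporter, rose from 1 to 18 fragments, log2 ratio 2.81 (1.03 to 9.08). Of 15 transcription factors, 1 was higher and 2 lower, with a median of 0.19. PPARG, a nuclear receptor of lipid metabolism, rose from 3 to 23 fragments, with 2.14 (0.74 to 4.84). ELF3, an epithelial ETS factor whose locus holds 1 other gene, fell from 95 to 63 fragments, with -1.05 (-1.55 to -0.59), and FOXA3 from 10 to 4, with -1.51 (-3.92 to -0.00). Of 9 stem cell genes, 2 were lower and 0 higher, with a median of -0.40. PTK7 fell from 92 to 45 fragments, with -1.48 (-2.05 to -0.98), and MSI1, an RNA-binding protein of progenitors, from 24 to 10, with -1.61 (-2.96 to -0.62). Of 4 lipid genes tested, 1 was lower: SLC27A4, a fatty acid transporter, had 41 and 26 fragments, with -1.09 (-1.90 to -0.39). Neither of the 2 secretory factors tested was called. The calls of ELF3, FOXA3, MSI1, SLC27A4 and SLC9A3R1 were lost both under scaling by total fragments and with the GC trend subtracted. EPS8 and ESPN, the other brush border genes called besides SLC9A3R1, changed sign under some settings.

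Whether SCS acted differently on the 2 lines could be asked of few genes, because most of the 10 had 0 fragments in 1 line. HNF4A was the single member with fragments in both. The ratio of its SCS changes, HT-29 over NCM460, had an upper interval end of 1.59 on the log2 scale and no lower end, and so did not exclude equal changes. Of 54 loci from the members and companion lists, 13 differed by more than 1.5-fold with an exact conditional interval that excluded no difference, 4 with the higher change in HT-29 and 9 with the lower. This was 24.1% of them, beside 26.4% of 11886 loci compared in the same way over the whole table, which leaves out 88 loci with more than 3000 fragments. Among these, SOX9 differed by -1.17 (-1.64 to -0.70) and AXIN2 by -1.88 (-3.68 to -0.24), both lower in HT-29, and ELF3 by 1.27 (0.71 to 1.83). These intervals compare 4 libraries and not replicated conditions.

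The baseline comparison of HT-29 with NCM460 asks how the 2 lines differed without SCS. LGALS4, with 138 against 0 fragments, was at least 17.5-fold higher in HT-29 cells without SCS, and the end of its counting interval nearest to no change was 3.81 on the log2 scale. The equal count of VIL1 gave the same bound. CEACAM1 was at least 15.4-fold higher (interval end 3.62), and HNF4A at least 2.28-fold higher (interval end 0.74). CDX2, with 0 against 14 fragments, was at least 12.3-fold lower in HT-29 cells (interval end -3.12). The CEACAM5/6 locus, with 10 against 0 fragments, was not called, and its bound was 1.27-fold (interval end -0.23). Each bound is the fold against the floor of 3 fragments per library and leaves out counting error, so the interval end can lie nearer to no change. The bounds also moved over the settings of scaling, depth and trend subtraction. They ran from 14.7 to 37.5 for LGALS4 and VIL1 and from 12.6 to 32.9 for CEACAM1. For HNF4A they ran from 2.004 to 4.89 and for CDX2 from 5.73 to 15.1. In all, 4 of 6 loci tested were called higher and 1 lower, beside 48.4% of 12691 loci called, 25.3% higher and 23.1% lower.

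With SCS in both lines the bounds had another order, which for genes at 0 in NCM460 follows their levels in HT-29. LGALS4 was at least 69.6-fold higher in HT-29 cells (interval end 5.82), and CEACAM1 at least 15.5-fold higher (interval end 3.63). The CEACAM5/6 locus was now at least 14.3-fold higher (interval end 3.51), while the bound of VIL1 was 3.60-fold (interval end 1.44). CDX2 was at least 8.89-fold lower (interval end -2.63), a bound that went down to 3.996 after thinning. HNF4A, with 7 against 2 fragments, had a log2 ratio of 0.42 (-1.74 to 3.96) and was not called. This made 4 loci higher and 1 lower of 6 tested, beside 46.6% of 13050 loci called, 24.2% higher and 22.4% lower.

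**Figure D4:**
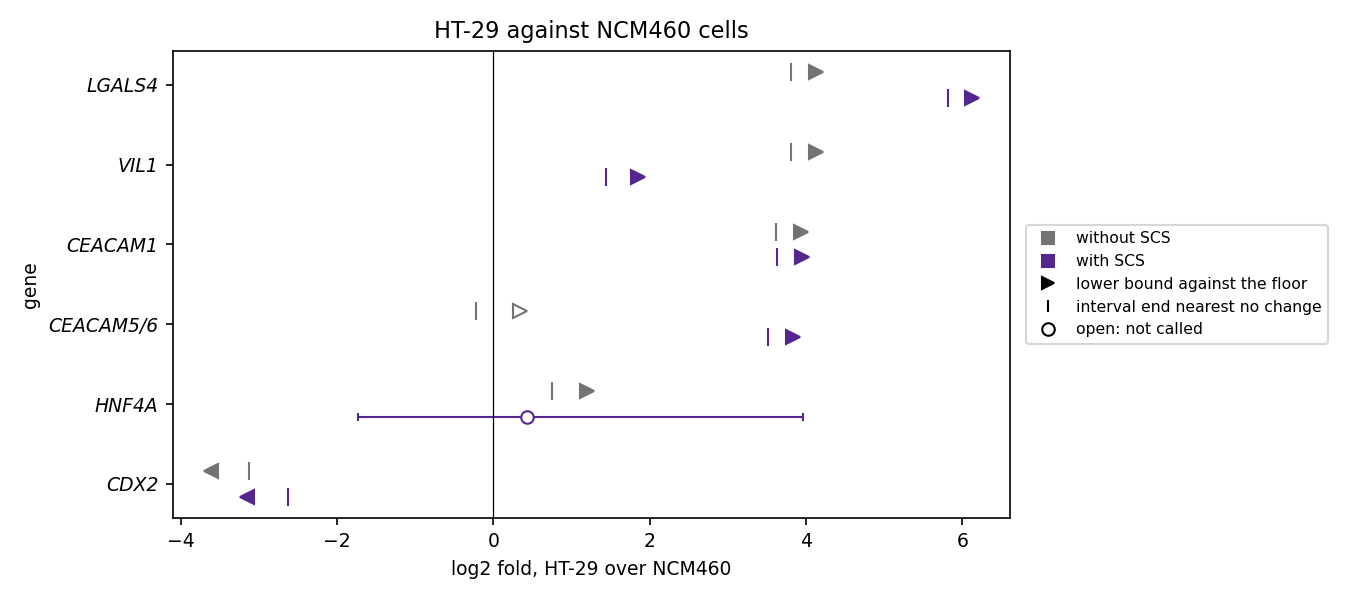
Log2 fold of HT-29 over NCM460 cells without SCS (grey) and with SCS (purple); triangles are lower bounds against the floor of 3 fragments, vertical ticks the interval end nearest to no change, the circle with a bar a log2 fold change with its 95% interval, and open symbols are not called. LGALS4 is furthest to the right with SCS, and CDX2 lies on the NCM460 side in both pairs of libraries.

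Companion genes filled in this picture of the lines. EHF, an epithelial ETS factor, had 284 fragments in the HT-29 control and 0 in the NCM460 control, at least 36.0-fold higher (interval end 4.86). KRT20, with 119 against 0, was at least 15.1-fold higher (interval end 3.60). DPP4, a brush border peptidase, with 65 against 0, was at least 8.25-fold higher (interval end 2.70). On the NCM460 side, ESPN, an actin bundler, had 55 fragments against 1 in HT-29, log2 ratio -5.35 (-12.50 to -4.64), and EZR, the abundant membrane-actin linker, 737 against 373, with -2.37 (-2.56 to -2.19). MSI1, with 24 against 0, was at least 21.0-fold lower in HT-29 cells (interval end -3.98).

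Over the 8 lists, again without the members' own loci, 38 of 60 tested were called between the controls, or 63.3%, beside the 48.4% of all loci (25.3% higher and 23.1% lower), and 39 of 60 with SCS, or 65.0%, beside 46.6%. By list, 9 of 19 transcription factors were called higher in HT-29 cells without SCS and 4 lower, with a median of 0.98. Of 13 brush border genes 5 were higher and 2 lower, with a median of 1.55, or 0.43 with genes at 0 set to their bound. Of 6 absorptive genes 3 were higher and 1 lower, with medians of 2.08 and 1.96 by the same reckoning. Of 10 stem cell genes 3 were higher and 5 lower, with a median of -0.36. Of 4 lipid genes 0 were higher and 2 lower, and of 3 secretory factors 1 was higher and 0 lower. The median of all loci was 0.10.

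An additive count model over the 4 libraries, with line and treatment as terms, was fitted as a description. It has 1 residual degree of freedom, and its spread is how far the SCS change differs between the lines. By edgeR's quasi-likelihood test with Benjamini-Hochberg adjustment over all 12942 loci, 5 of the 6 member loci tested were called between the lines, 4 higher and 1 lower in HT-29, beside 16.2% of all loci, 8.01% higher and 8.2% lower. The adjusted p was 2.9e-13 for LGALS4, 9.4e-09 for CEACAM1, 1.1e-06 for VIL1, 4.2e-05 for the CEACAM5/6 locus and 3.3e-05 for CDX2. Each of these 5 loci had 0 fragments in both libraries of 1 line, so the model fitted it without such a spread. Their adjusted p-values by this edgeR test rest on spread taken from other loci and on counting error. LGALS4, CEACAM1 and VIL1 were called higher in HT-29 in both pairs of libraries and CDX2 lower in both, whereas the CEACAM5/6 locus was called higher in the treated pair only. HNF4A was not called, with an adjusted p of 0.299 by the same edgeR test. DESeq2 called 2 of the 6, the CEACAM5/6 locus and CDX2, beside 6.68% of all loci, 2.51% higher and 4.16% lower. For a treatment effect common to HT-29 and NCM460, edgeR called 0 of the 6 and 9 loci in all, or 0.0695% (0.0309% higher and 0.0386% lower), with 697 at an unadjusted p under 0.05. DESeq2 called 27 loci in all, or 0.209% (0.116% higher and 0.0927% lower), and 0 of the 6, but it gave an adjusted p to LGALS4 alone of these (0.976) and left 11291 of all loci as NA. For the 5 member loci at 0 in 1 line, the treatment term came from the other line alone. Whether a change was common to both lines could therefore not be assessed for them.

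Genes with a profile over the 4 libraries like the mean of the members were looked for among 5288 loci whose CPM averaged 20 or more. The mean was taken over the 6 member loci with at least 10 fragments in some library, and likeness was the Euclidean distance of centred log2 CPM over the 4 libraries. CALB2, the calcium-binding protein calretinin, was nearest, at a distance of 0.128, with 178, 184, 7 and 10 fragments for untreated and treated HT-29 and untreated and treated NCM460. LGALS8, another galectin, followed at 0.222, with 105, 131, 5 and 7 fragments. A mitochondrial locus of transfer RNA genes (MT-TA, MT-TC, MT-TN and MT-TY) stood at 0.285, ATP9A, a phospholipid flippase, at 0.315, and CCAT1, a noncoding RNA described in colon cancer, at 0.321. The mean profile is high in both HT-29 libraries and low in both NCM460 libraries, so genes near it share that contrast by choice. It pools CDX2, which runs the other way, with LGALS4 and VIL1, which moved oppositely with SCS, and is the profile of no single member.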

How the data were processed

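Libraries of the 4 conditions, made from extracted total RNA, were grouped by their labels. The submitters' processing notes name bcl2fastq 2.17.1.14, cutadapt 1.9.1, Bowtie2, HTSeq 0.6.1 and build hg19, but the coordinates in the table are those of GRCh38, and the paper names Cuffdiff. The deposited count columns hold a signal, fragment counts that the authors divided by a size factor per library, and the authors also deposited FPKM. Division by the worth of 1 fragment (0.686 and 0.577 for untreated and treated HT-29, 2.04 and 1.328 for NCM460) gave whole numbers, within 0.1, for at least 99.9% of values above 0. The design had assumed whole counts. Rows without a gene name, 26 in number, were left out and held 0.0404% to 0.0943% as many fragments as the merged loci. Adjacent rows with identical values were merged into 18650 loci, of which 1812 hold more than 1 gene. Whether counting used strand is not given in the sources used here, so antisense partners cannot be told apart.

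Fragments were scaled by TMM in edgeR 4.0.16 (factors 1.24, 1.497, 0.578 and 0.935). Models within a line could not be fitted, and no p-value is given for 1 library against 1. DESeq2 1.42.0, R 4.3.3, Python 3.11.15 and SciPy 1.17.1 were used, with GC content from GENCODE 29, available for 96.1% of loci. RefSeq promoters were found for 7 of the 10 genes. They were not found for VIL1, CDX1 and CDH17. The lists were other CEACAM genes, other galectins, brush border, absorptive, lipid handling, transcription factor, secretory and stem cell genes, and markers of epithelial, mesenchymal, squamous, immune, endothelial, gastric and hepatocyte cells. From each of the first 8 lists, at most the 3 highest and 3 lowest called genes with a mean of at least 5 CPM were named per comparison, and from each marker list the most abundant gene and those at 0. Some genes that this rule selects are not reported here. Other genes that differ between the lines were picked from their values. The members and lists were chosen with earlier results of these data known. Alternatives covered scaling, prior count, depth, low filters, FPKM, and trends on GC content and expression.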

Additional observations from a re-analysis of the deposited data

Results flagged for a closer look

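PPARG, a nuclear receptor of lipid metabolism and a member of the transcription factor list, was called in opposite directions in the 2 lines. It had 89 fragments in the HT-29 control and 63 with SCS, and 3 in the NCM460 control and 23 with SCS. The log2 difference of its SCS changes, HT-29 minus NCM460, was -3.18, with an exact conditional interval of -5.62 to -1.36. In HT-29 its log2 ratio was -0.70 and was not called by total fragments only, at -0.44, where the opposite calls are lost. In NCM460 it was called in every setting, at 2.14 in the main one. There it ran from 1.08 by log2(FPKM + 1) to 2.56 by total fragments only. The interval covers counting error in 4 libraries, and the difference was not tested over replicates. None of the 10 differentiation genes could be tested with SCS in both lines.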

How the results depend on the processing

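Of 205 values of single differentiation genes under alternatives, none changed direction, 3 passed the threshold newly, 1 no longer passed it and the others kept their side of it. Some of these could not differ: settings that only filter loci repeat the main value, and the prior count does not enter a bound. Nor could scaling reverse a gene at 0 in 1 library. The value that no longer passed was HNF4A with SCS in HT-29 cells, at -1.09 when scaled by total fragments only. The 3 were CDX2 with SCS in NCM460 cells at -0.62 and HNF4A between the lines under SCS at 0.99, both by log2(FPKM + 0.1), where no interval applies, and the bound of the CEACAM5/6 locus between controls, at 2.72-fold by total fragments only. Between controls, 6 differentiation loci in place of 5 were also called by log2(FPKM + 0.1) and by log2(FPKM + 1). These were all 6 tested, the CEACAM5/6 locus included, but a gene at 0 in 1 library has no single value there. The log2 fold changes with SCS in HT-29 cells ranged from 1.35 to 1.78 for LGALS4, 2.43 to 3.03 for the CEACAM5/6 locus, -2.88 to -2.38 for VIL1 and -1.65 to -1.02 for HNF4A, and in NCM460 cells from -0.90 to -0.00 for CDX2. With SCS in both lines, the bounds of HT-29 over NCM460 ranged from 51.7 to 111 for LGALS4, 12.7 to 24.7 for CEACAM1, 13.5 to 22.8 for the CEACAM5/6 locus and 3.34 to 5.76 for VIL1, and of NCM460 over HT-29 from 3.996 to 9.20 for CDX2. Loci with 1 gene only, chosen after seeing the data, left out the CEACAM5/6 locus and changed no other call of these genes.

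Of 117 counts, 108 stayed within 1.5 times. By log2(FPKM + 0.1), called past 1.5-fold with no interval, the counts of called loci were 6425 for SCS in HT-29, 8430 for SCS in NCM460, 9352 between controls and 9177 under SCS, against 3839, 3690, 6144 and 6082, and 1 differentiation gene in place of 0 was called in NCM460. By log2(FPKM + 1) the NCM460 count was 7474. With the GC trend subtracted it was 1492, and the cause was not tested. Between the lines DESeq2 called 864 loci against 2098 by edgeR, and 27 against 9 for the shared SCS change; DESeq2 left 2509 and 11291 adjusted p-values as NA. Scaling by total fragments shifted the median log2 fold change by 0.26, 0.61, 0.95 and 0.62 in these 4 comparisons, and the share of calls that were higher from 53.1%, 52.7%, 52.3% and 51.9% to 73.8%, 94.1%, 85.1% and 76.5%. The authors' own scaling shifted it by -0.13 for SCS in NCM460, with 42.0% of calls higher, and by -0.16 between controls, where DESeq2's factors shifted it by -0.11, and FPKM gave 36.6% to 42.0% of calls higher over the 4. The FPKM and prior count alternatives gave no value for the line difference in SCS change, which has no such term. No paired analysis was possible because the labels give no replicate numbers and each line had 1 treated and 1 untreated library; the additive model with line as a term, given above, is blocked by line. Depth limits the NCM460 values most: 507692 and 621582 nuclear fragments, against 1061700 and 1383424 in HT-29.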

Other observations

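Of the 8 other galectins, 4 had fragments in some library, and LGALS1 and LGALS8 differed between the lines in both pairs of libraries. LGALS1, galectin-1, had 2 fragments in each HT-29 library, against 391 in untreated and 301 in treated NCM460, a log2 ratio of -7.81 (-12.06 to -7.14) without SCS. LGALS8 had 105 and 131 fragments in HT-29 and 5 and 7 in NCM460, with 2.77 (1.73 to 4.65) without SCS. Of 4 galectins tested between the controls, 2 were called higher in HT-29 and 1 lower, beside 48.4% of all loci called. The other higher one, LGALS3, with 0.92 (0.07 to 2.004), was not called in 5 of 13 settings, nor with SCS in both lines (0.42, -0.09 to 0.98), and LGALS9, whose values are shared with KSR1 and AC015688.3, was called in neither pair. LGALS3, galectin-3, rose with SCS in both lines, from 62 to 123 fragments in HT-29, log2 ratio 0.73 (0.30 to 1.22), and from 12 to 41 in NCM460, with 1.23 (0.34 to 2.36). Its HT-29 call was lost at equal nuclear depth. With SCS, 1 of 3 galectins tested was called higher in HT-29 and 0 lower, and in NCM460 1 of 4 higher and 1 lower, beside 31.5% and 29.2% of all loci called in the 2 lines. The lower was LGALS1, with -0.85 (-1.07 to -0.63), which was not called with the GC or expression trend subtracted or by total fragments only.

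Of the 9 other CEACAM genes, 4 had fragments in some library. With SCS in HT-29 cells 3 were tested, 1 was called higher and 2 were not called, beside 31.5% of all loci called, 16.8% higher. The call was CEACAM21, which shares the CEACAM5/6 locus, so it repeats the call of that locus. CEACAM19, whose values are shared with the adhesion receptor gene PVR, had 268 and 437 fragments in HT-29 and 68 and 39 in NCM460. It was the single one tested in NCM460, where it fell with a log2 ratio of -1.25 (-1.88 to -0.69), a call lost under scaling by total fragments. The change in HT-29 was higher than in NCM460 by 1.75 (1.11 to 2.40) on the log2 scale, over 1 library per condition.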
